A study of Mus musculus with 10 samples.

Results

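The genes described here are 39 transcription factor genes of the neural lineage, taken by name as regulators of a fate foreign to blood mesoderm. They were looked up in GENCODE M1, the gene annotation of the mouse mm9 genome, and 38 of the 39 had an entry among its 22359 protein-coding genes. Sox1 had none and was not analysed here. The genes were taken by name, from a list drawn up with earlier results of these data known. A peak was assigned to a gene when it came within 2.5 kb of the transcription start site (TSS) of any of its protein-coding transcripts, and the lengths of its peaks were summed.

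The study compared histone marks in embryoid bodies (EBs) at day 4, clumps formed by mouse embryonic stem (ES) cells as they differentiate, with and without functional SCL. SCL, also called TAL1, is a basic helix-loop-helix (bHLH) transcription factor required to specify blood. Both groups were mCherry-positive cells sorted from EBs, and both were mixed with Drosophila S2 cells as a spike-in before ChIP (ChIP-Rx). The labels give the strain as C57Bl/6 X Sv129, but the number in this label differs from sample to sample, from Sv129 upwards. H3K27me3, H2AK119ub, H3K4me3 and H3K27ac were each profiled once in each group. The Scl:mCherry line (WT) came from J1 ES cells and carries the mCherry insertion at 1 allele of Scl. The Scl d/d:mCherry line (Delta) was engineered from it and lacks the bHLH domain at both alleles. Each line was a clone grown out from a single sorted cell, so a line and its genotype cannot be told apart. mCherry is read from the Scl locus in both, so the sort takes cells that use this locus whether or not they make a functional protein.

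Each mark had a single library in each genotype, so a difference between WT and Delta is a difference between 2 libraries with no replicate check, and no p-value is given. The 8 peak lists held 70826 peaks. They were not scaled by the spike-in and do not give read depth, and a region absent from a list may hold signal under the peak caller's threshold. Marker genes were read for H3K27ac, which was listed at 19.9% of all genes in WT and 22.8% in Delta. It was listed at 4 of 7 marker genes of blood-fated mesoderm in WT and at 0 of 7 in Delta. Of 4 early mesoderm markers, 0 had it in WT and 1 in Delta. It was listed at 0 of 10 neuronal, 0 of 3 endoderm and 0 of 3 pluripotency markers in both. The blood markers include Scl itself and genes of the blood list below, so their counts do not check the sort in Delta.

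Neural transcription factors fall into a few DNA-binding families. Pax and Sox proteins, together with homeodomain proteins such as Otx, Emx, En and Nkx factors, divide the neural tube and brain into territories. bHLH proteins such as neurogenins, NeuroD factors and Atoh1 then drive neuronal differentiation, while Olig1 and Olig2 serve motor neurons and oligodendrocytes. In cells of other fates these genes are classical targets of Polycomb. Polycomb repressive complex 1 (PRC1) places ubiquitin on histone H2A (H2AK119ub), and complex 2 (PRC2) methylates histone H3 (H3K27me3). H3K4me3 marks CpG-rich start sites, also at silent genes where it can sit beside H3K27me3, a state called bivalent. H3K27ac marks active promoters and enhancers. A few of the genes have better known roles elsewhere: Pax5 in B cells, Pax8 in thyroid and kidney, and Neurog3 in the endocrine pancreas.

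Polycomb targets in mammals are mostly CpG-rich, and promoter sequence therefore opens the description. The 200 bases before the TSS of the longest transcript are shown for 4 genes, 5′ to 3′ on the gene's strand, with each CpG in capitals. Neurod2 (chr11:98190963-98191162, mm9, minus strand) had the longest H3K27me3 peak of the 38 genes. Pax7 (chr4:139389446-139389645, minus strand) had the largest ratio of H3K27me3 length in Delta over WT. Pax8 (chr2:24331120-24331319, minus strand) had the smallest such ratio and also the fewest CpGs around its TSS. Pou4f1 (chr14:104867217-104867416, minus strand) had the most, and was added after its value was seen. None of the 4 windows overlapped an annotated exon.
Neurod2: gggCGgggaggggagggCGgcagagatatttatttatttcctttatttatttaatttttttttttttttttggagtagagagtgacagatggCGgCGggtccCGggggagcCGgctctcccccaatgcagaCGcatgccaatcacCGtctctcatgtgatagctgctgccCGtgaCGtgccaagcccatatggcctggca
Pax7: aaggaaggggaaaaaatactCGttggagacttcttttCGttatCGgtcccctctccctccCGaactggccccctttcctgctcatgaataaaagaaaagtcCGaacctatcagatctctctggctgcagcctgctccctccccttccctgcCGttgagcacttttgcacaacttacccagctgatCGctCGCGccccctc
Pax8: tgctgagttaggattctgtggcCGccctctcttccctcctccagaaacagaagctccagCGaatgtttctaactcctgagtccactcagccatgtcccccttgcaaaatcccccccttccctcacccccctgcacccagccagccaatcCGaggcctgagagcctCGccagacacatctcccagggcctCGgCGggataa
Pou4f1: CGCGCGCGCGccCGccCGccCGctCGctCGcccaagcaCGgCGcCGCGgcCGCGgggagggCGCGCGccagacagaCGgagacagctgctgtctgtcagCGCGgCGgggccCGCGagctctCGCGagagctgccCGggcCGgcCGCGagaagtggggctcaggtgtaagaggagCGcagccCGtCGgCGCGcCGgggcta
These windows held 10, 9, 6 and 37 CpGs, in that order.

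Over 1001 bp centred on the TSS, the 38 genes had a median of 62 CpGs, from 18 at Pax8 to 125 at Pou4f1. The median was 41 over all 22359 genes, 67 over the 6216 genes with H3K27me3 in both genotypes, 58 over the 6326 genes with H3K4me3 and no H3K27me3 in WT, and 10 over the 8178 genes with no listed peak in WT. The neural median lay between those of genes with H3K27me3 and of genes with H3K4me3 without it. An E-box (CANNTG, the bHLH recognition sequence, which reads the same on both strands) was found in the 200 bp before the TSS of 16 of the 38 genes (42.1%), against 54.3% of all genes. GATAA, the core of the sequence bound by GATA factors, read on either strand, was found at 11 of 38 (28.9%), against 16.6%. The 2 motifs can overlap, and a match is a description of letters only.

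H3K27me3 was present at all 38 genes in both genotypes, against 34.8% of all genes in WT and 32.7% in Delta. H3K27me3 was thus listed in WT alone at 0 of the 38 genes (7.04% of all genes) and in Delta alone at 0 (4.91%). Of all genes with H3K27me3 in WT, 79.8% also had it in Delta, and here 38 of 38 did. Each gene had exactly 1 H3K27me3 peak in each list, and that peak spanned the TSS of its longest transcript at all 38. Among all genes with H3K27me3 this TSS was covered in 3894 of 7791 in WT and 3694 of 7313 in Delta. Peaks were assigned within 2.5 kb of a TSS, and those of the 38 genes were long. Cover of the TSS was thus in part set by length. The share of all genes with exactly 1 peak was not counted. A peak list of a sorted population does not say what share of the cells carried a mark.

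**Figure D1:**
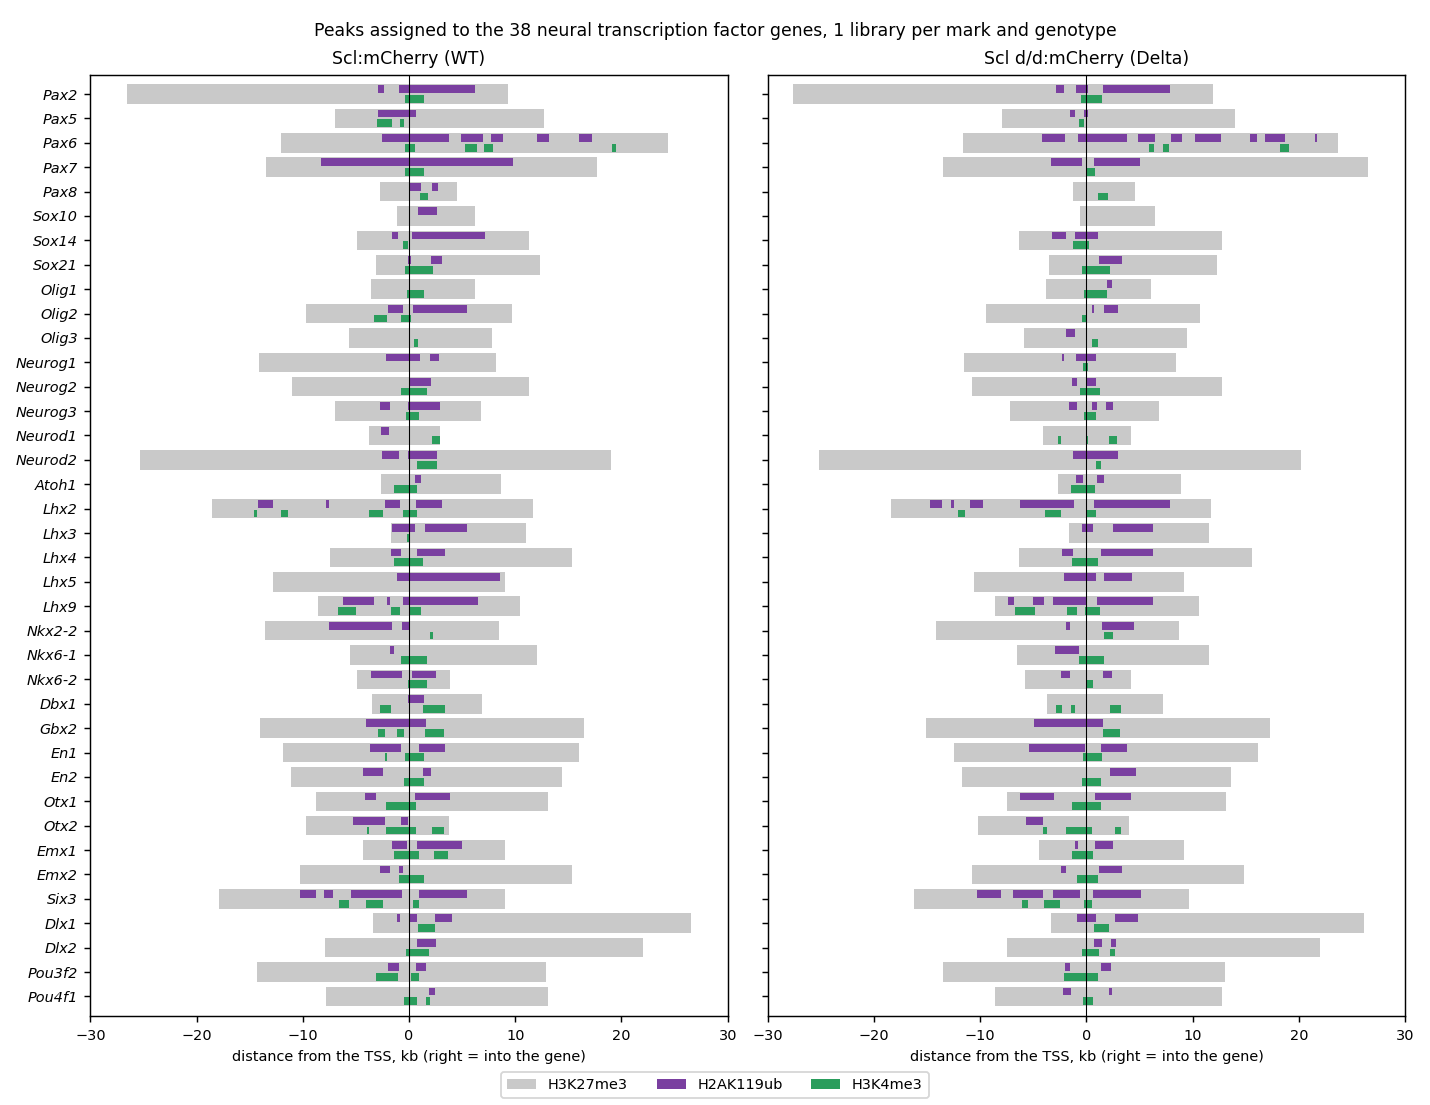
Peaks at the 38 genes in WT (left) and Delta (right), drawn from the TSS of the longest transcript, with the direction of transcription to the right; the x axis is distance in kb and each row is 1 gene. Grey bars are H3K27me3, purple bars H2AK119ub and green bars H3K4me3. Every purple and green bar lies inside a grey one, and the grey bars keep nearly the same edges in the 2 panels.

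These were long domains. The summed length had a median of 21318.5 bp in WT (6749 to 44410 bp) and 20374.5 bp in Delta (5811 to 45359 bp). Over all genes with H3K27me3 the medians were 1725 bp and 1980 bp. A peak of at least 10 kb was found at 33 of 38 genes in both genotypes, against 2.17% of all genes in WT and 2.32% in Delta. The 5 below it were Neurod1, Sox10, Pax8, Nkx6-2 and Olig1 in both lists. In both lists 35 of the 38 genes had a peak among the longest 5%. The domain reached a median of 8216.5 bp upstream and 11164 bp downstream of the TSS in WT, and it held the whole gene at 22 of 38 genes.

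The longest domain was that of Neurod2, a bHLH factor of maturing neurons (chr11:98186729-98190962). It measured 44410 bp in WT, at chr11:98171917-98216326, and 45359 bp in Delta. The domain also holds the TSS of the neighbouring gene Ppp1r1b. Pax6, a regulator of eye and forebrain, came next in WT with 36388 bp (chr2:105497036-105533423) and had 35246 bp in Delta. Pax7, a dorsal neural tube and muscle stem cell factor, came next in Delta with 39999 bp and had 31127 bp in WT (chr4:139371782-139402908). The shortest domains in WT were those of Neurod1 (6749 bp), Sox10 (7317 bp) and Pax8 (7324 bp). Dlx1 and Dlx2, forebrain interneuron factors, lie side by side and shared a single peak of 29854 bp (WT) and 29510 bp (Delta), so their H3K27me3 values are 1 measurement.

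The domains were also strongly enriched. Fold enrichment, the peak caller's ratio of ChIP to local background averaged over a peak, had a median of 9.13 in WT (6.65 to 11.3) and 9.66 in Delta (6.68 to 12.6). The medians over all genes with an H3K27me3 peak were 3.99 and 4.18. Nkx6-2, a ventral neural tube factor, had the highest value in WT (11.3) and Lhx5, a LIM homeobox factor of early neurons, the highest in Delta (12.6, against 10.7 in WT). Otx2, a forebrain and midbrain factor, had the lowest in both. These last 3 genes were singled out after their values were seen. Fold enrichment was higher in Delta at 30 of 38 genes, against 61.6% of the 6216 genes with a peak in both lists. These values are not scaled by the spike-in and do not show the overall level of a mark. With that scaling, and by western blot, the paper reported a global reduction of H3K27me3 and H2AK119ub in Delta.

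Domain length differed little between the 2 libraries. The ratio of Delta over WT had a median of 1.02 (0.793 to 1.29), with the domain longer in Delta at 24 genes and shorter at 14, counting Dlx1 and Dlx2 each. The median length over the genes went the other way, being lower in Delta. Over the 6216 genes with H3K27me3 in both, the median was 1.01. At none of the 38 genes was the domain under 0.5 or over 2 times its WT length, while it was at 7.92% and 6.10% of all these genes. Over all genes with H3K27me3 in WT the median length was only 1725 bp. Genes with long domains were not compared separately here, so the difference may not be particular to neural genes. Of the 76 domain edges, 58 lay within 1000 bp of their position in the other list, and the median shift was 365 bp. The edges were counted by gene, so those of the domain shared by Dlx1 and Dlx2 were entered at both genes. Edge shifts at other genes were not measured.

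The largest ratios were found at Pax7, Neurod1 and Sox14. At Pax7 nearly all of the added length lay downstream of the TSS, where the edge was 17663 bp away in WT and 26512 bp in Delta, a shift of 8849 bp that was the largest among the 76 edges. Neurod1, a bHLH factor of neurons and endocrine cells, had 6749 bp in WT and 8201 bp in Delta, a ratio of 1.22. Sox14, a factor of brain interneurons, had 16174 bp and 19095 bp, a ratio of 1.18. For Pax7 the ratio was 1.29.

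The smallest ratios were found at Pax8, Neurog1 and Lhx5. Pax8 had 7324 bp in WT and 5811 bp in Delta, a ratio of 0.793. Neurog1, a proneural bHLH factor of sensory neurons, had 22299 bp and 19954 bp, a ratio of 0.895. Lhx5 had 21811 bp and 19790 bp, a ratio of 0.907. At these 3 genes the shift was at the upstream edge, by 1531 bp, 2575 bp and 2168 bp, while the downstream edges shifted by 18 bp, 230 bp and 147 bp.

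**Figure D2:**
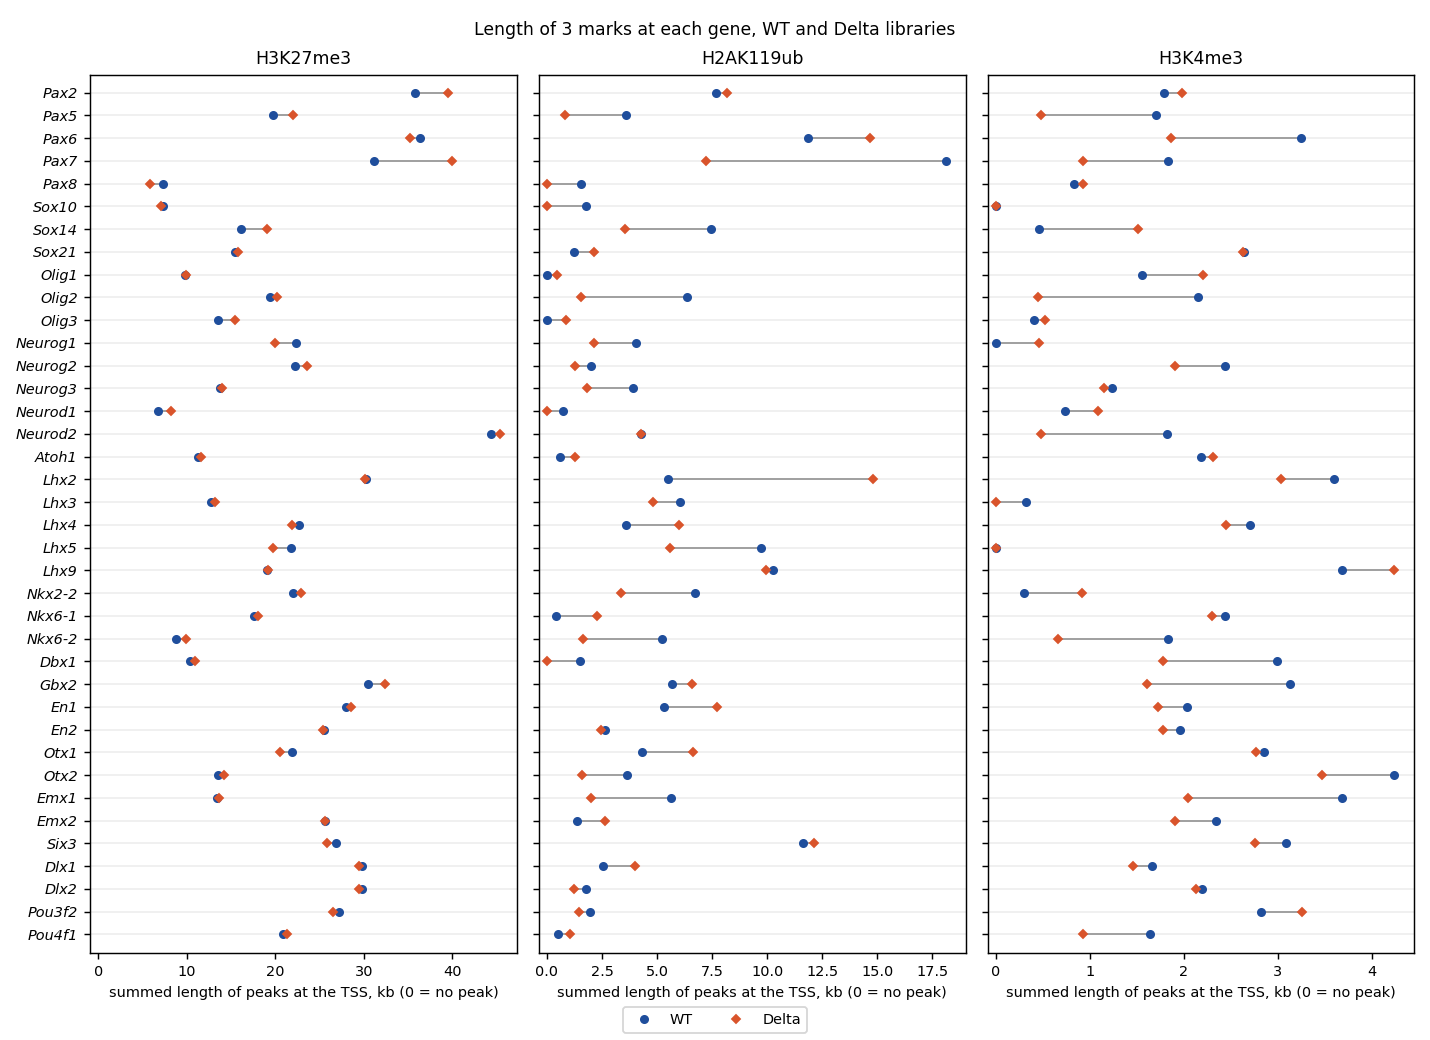
Summed length in kb of the peaks at each of the 38 genes for H3K27me3, H2AK119ub and H3K4me3, with WT as blue circles and Delta as orange diamonds joined by a grey line; 0 is no listed peak, and each point is 1 library. The x scales differ between the panels, so point distances cannot be compared across them. For H3K27me3, 0 genes had under 0.5 or over 2 times their WT length. Of the 32 genes with H2AK119ub in both lists, 8 had under 0.5 times (25.0%, against 34.5% of all such genes). Over 2 times was seen at 4 of the 32 (12.5%, against 12.0%). H2AK119ub was at 0 in Delta alone at 4 genes and at 0 in WT alone at 2.

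H2AK119ub, the product of PRC1, was listed at 36 of 38 genes in WT and 34 of 38 in Delta. The shares of all genes were 9.21% and 5.0%. Of the 36 genes with H2AK119ub in WT, 32 also had it in Delta (88.9%), against 44.9% of the 2060 genes with it in WT overall. These listings rest on peaks of low significance: with a −log10 q of at least 3, H2AK119ub was at 5 genes in WT and 2 in Delta, and 0 genes had it in both. The share of all genes at this minimum was not counted. The fold enrichment of H2AK119ub had a median of 3.92 in WT and 4.21 in Delta, against 3.68 and 4.03 over all genes with the mark. At 34 genes in WT and 27 in Delta it was above the median of all peaks in the list. A gene's value is that of its strongest peak, and 24 genes in WT and 26 in Delta had more than 1. Such counts are thus raised by construction, and the share over all genes was not counted. With equal numbers of top peaks taken from both lists, the counts were 33 in WT and 34 in Delta. Genes with an H3K27me3 peak of at least 10 kb are a closer comparison. Of these, 86.6% had H2AK119ub in WT and 77.5% in Delta, and 84.8% of those with both in WT had H2AK119ub in Delta. For the neural genes the counts were 32 of 33 (97.0%), 32 of 33 and 31 of 32 (96.9%). The gene of the 33 without H2AK119ub was Olig3 in WT and Dbx1 in Delta. The shares among all genes with long domains lay nearer to those of the neural genes than the genome-wide shares did.

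H2AK119ub was listed in WT alone at 4 genes (5.08% of all genes) and in Delta alone at 2 (0.863%). With equal numbers of top peaks the order turned, to 3 in WT alone and 4 in Delta alone. The first 4 were Pax8 (1528 bp), Sox10 (1757 bp), Neurod1 (739 bp) and Dbx1 (1509 bp). Sox10 serves neural crest and glia, and Dbx1 marks progenitors of spinal interneurons. Pax8, Sox10 and Neurod1 had the 3 shortest H3K27me3 domains in WT, and that of Dbx1 measured 10337 bp. In Delta the nearest H2AK119ub peak to a TSS of these genes lay 41723 bp away at Dbx1, 87876 bp at Sox10, 789120 bp at Pax8 and 4321191 bp at Neurod1. The 2 genes with H2AK119ub in Delta alone were Olig1 (448 bp) and Olig3, a dorsal neural tube factor (844 bp). In WT the nearest peak lay 35129 bp from Olig1 and 4500 bp from Olig3. At all 6 genes the summed length was below the median of the 38 genes in that list. The −log10 q, the peak caller's false discovery measure averaged over a peak, was between 1.44 and 2.46.

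The summed length of H2AK119ub had a median over the 38 genes of 3778 bp in WT and 2219 bp in Delta. A gene without a peak counted as 0. Over the 32 genes with H2AK119ub in both, the ratio of Delta over WT had a median of 0.950 and ran from 0.225 to 5.44, with 14 genes longer and 18 shorter. Over all 925 genes with it in both, the median was 0.733 and 34.6% were longer in Delta. Of the 32 genes, 8 had under 0.5 times their WT length (25.0%, against 34.5% of the 925) and 4 over 2 times (12.5%, against 12.0%). The fold enrichment was higher in Delta at 25 of 32 genes, and at 80.8% of the 925.

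Pax7 had the longest H2AK119ub in WT, a single peak of 18109 bp from -8293 to 9815 bp around the TSS. In Delta it had 7220 bp, in peaks on either side of the TSS from -3317 to -430 bp and from 748 to 5079 bp. The gene whose H3K27me3 domain was longest relative to WT thus had 0.399 times its WT length of H2AK119ub. Lhx2, a LIM homeobox factor of forebrain and eye, had the longest in Delta, 14811 bp against 5493 bp in WT, while its H3K27me3 domain measured 30214 bp (WT) and 30145 bp (Delta). Pax6 was second in both lists, at 11861 bp (WT) and 14677 bp (Delta). It has 21 annotated TSSs, and peaks near any of them were summed. These reached 17273 bp (WT) and 21718 bp (Delta) downstream of the TSS of its longest transcript. The WT peak at that TSS measured 6309 bp, so the rank rests on the other TSSs. The largest ratio, 5.44 at Nkx6-1, a motor neuron and beta cell factor singled out after its value was seen, came from 420 bp (WT) and 2284 bp (Delta). Lengths were also over 2 times those in WT at Lhx2, Atoh1 (2.24) and Pou4f1 (2.06).

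At these genes H2AK119ub lay wholly within H3K27me3 and mostly beside the TSS. The 38 genes had 69 H2AK119ub peaks in WT and 75 in Delta, counting a shared peak once, and all of them were wholly inside an H3K27me3 peak of the same genotype. They took up a median of 18.4% of the H3K27me3 length in WT and 12.9% in Delta. Peaks were counted only near a TSS, and the TSS of each longest transcript lay in an H3K27me3 domain. Containment was thus in part set by position, and its share over all genes was not counted. The TSS of the longest transcript was itself covered at 14 of the 36 genes with H2AK119ub in WT and at 11 of 34 in Delta. Over all genes with H2AK119ub, it was covered in 17.7% and 14.6%. Of the 69 WT peaks, 55 were overlapped by a Delta peak (79.7%), against 36.4% of WT peaks at all genes. Of the 75 Delta peaks, 65 were overlapped by a WT peak (86.7%), against 70.1%. The peaks at the 38 genes were longer, with medians of 1511 bp (WT) and 1372 bp (Delta), against 717 bp and 771 bp over the lists. A longer peak is more readily overlapped, and peaks in other long H3K27me3 domains were not compared. The difference may thus not be particular to neural genes.

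H3K4me3 was listed at 35 of 38 genes in both genotypes, and at 60.7% of all genes in WT and 60.3% in Delta. Since H3K27me3 was at all of them, 35 of 38 genes were bivalent in each genotype, against 32.4% and 30.1% of all genes. Sox10 and Lhx5 had no H3K4me3 at the TSS in either list. The nearest peak to Lhx5 lay 4079 bp away in WT and 4073 bp in Delta, and that to Sox10 lay 21927 bp and 22358 bp away. Lhx3, a factor of motor neurons and pituitary, had H3K4me3 in WT alone (319 bp), and 1.06% of all genes did. Neurog1 had it in Delta alone (459 bp), and 0.684% of all genes did. Both peaks were short, with a −log10 q of 1.5 and 2.15.

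The H3K4me3 peaks were inside the H3K27me3 domains and weak for their lists. All 56 peaks in WT and all 50 in Delta were wholly within H3K27me3. Containment was again in part set by position, with no share counted over all genes. The fold enrichment had a median of 4.51 in WT (3.02 to 7.03) and 4.52 in Delta (3.30 to 6.27), against 7.37 and 6.59 over all genes with H3K4me3. In WT 3 genes (Sox21, Otx1 and Pou4f1) and in Delta 1 gene (Lhx4) had a peak above the median fold enrichment of all peaks in the list. Single peaks had a median length of 1224 bp in WT and 943.5 bp in Delta, against 1270 bp and 1197 bp over all peaks of the lists. Summed per gene, the median over the 38 genes was 1996 bp (WT) and 1751 bp (Delta), while genes with H3K4me3 had medians of 1588 bp and 1447 bp.

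Otx2 had the longest H3K4me3 in WT, 4235 bp, and 3473 bp in Delta. Emx1, a factor of the developing cerebral cortex, was second in WT with 3688 bp and had 2047 bp in Delta, where its second WT peak, from 2348 to 3714 bp downstream of the TSS, was not listed. Lhx9, a LIM homeobox factor of diencephalon and gonad, had the longest in Delta with 4241 bp and 3686 bp in WT. Otx2 has 7 annotated TSSs and Lhx9 has 5, against 1 at Emx1, and peaks near any of them were summed. Over the 34 genes with H3K4me3 in both, the ratio of Delta over WT had a median of 0.898 (0.209 to 3.30), with 10 longer and 24 shorter. The median over all 13324 such genes was 0.928. Ratios under 0.5 were found at 4 of the 34 genes (11.8%, against 2.74% of all) and over 2 at 2 genes (5.88%, against 0.968%). The first were Olig2 (2157 bp in WT, 451 bp in Delta), Neurod2 (1821 and 487 bp), Pax5 (1704 and 481 bp) and Nkx6-2 (1837 and 662 bp), and the others Sox14 (460 and 1518 bp) and Nkx2-2 (297 and 917 bp).

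Cover of the start site itself was compared between H3K4me3 and H2AK119ub, without a test. H3K4me3 covered the TSS of the longest transcript at 23 of the 35 genes with the mark in WT and 25 of 35 in Delta (81.1% and 78.1% over all genes with it). At 16 genes in WT and 21 in Delta the TSS was under H3K4me3 and not H2AK119ub, at 7 and 7 under H2AK119ub and not H3K4me3, at 7 and 4 under both, and at 8 and 6 under neither. Of the H2AK119ub peaks, 42 of 69 in WT and 35 of 75 in Delta overlapped an H3K4me3 peak. The same overlap was not counted over all genes. Of the H3K4me3 peaks in WT, 47 of 56 had a counterpart in Delta (83.9%), against 96.8% of those at all genes.

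**Figure D3:**
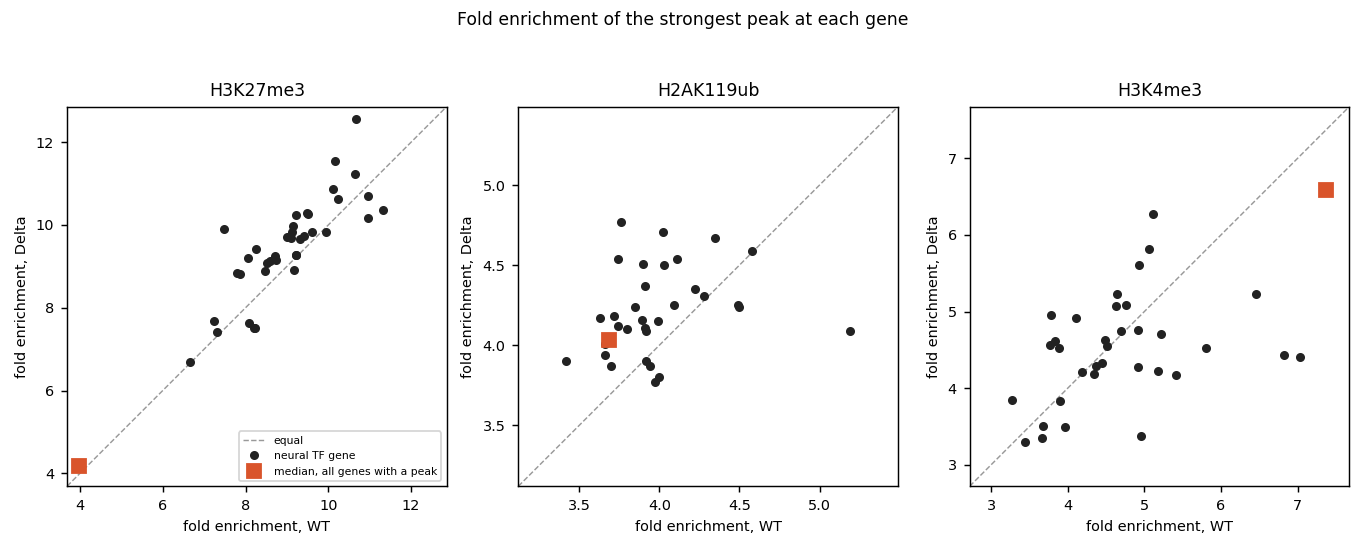
Fold enrichment of the strongest peak at each neural gene in WT (x axis) and Delta (y axis) for 3 marks, as deposited ratios with no unit; black points are genes with a peak in both lists, the orange square is the median over all genes with a peak in that list, and the dashed line marks equal values. For H3K27me3 every point lies above the orange square at 3.99 and 4.18 on both axes, and for H3K4me3 every point lies below the square at 7.37 and 6.59.

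H3K27ac was listed at 0 of 38 genes in WT and 0 of 38 in Delta. The shares of all genes were 19.9% and 22.8%, and H3K27ac was in WT alone at 3.43% and in Delta alone at 6.37% of all genes, against 0 neural genes in both cases. An H3K27ac peak within 50 kb of the TSS of the longest transcript was found at 1 of 38 genes (2.63%) in each genotype, against 37.9% and 41.8% of all genes. This was Lhx3, where the nearest peak lay 30351 bp away in WT and 30432 bp in Delta. At Dbx1 the nearest lay 2716497 bp and 2224965 bp away, the farthest of the 38. The state with H3K27me3, H2AK119ub and H3K4me3 and without H3K27ac was found at 33 of 38 genes in WT and 32 in Delta, and at 7.25% and 4.26% of all genes.

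By family, the Pax genes (Pax2, Pax5, Pax6, Pax7, Pax8) had the longest domains by median, with an H3K27me3 length of 31127 bp (WT) and 35246 bp (Delta), and also the longest H2AK119ub (medians of 7668 bp and 7220 bp). The family also had wide limits, since Pax8 lay at 7324 bp. The LIM homeobox genes (Lhx2, Lhx3, Lhx4, Lhx5, Lhx9) kept H2AK119ub at 5 of 5 genes, with medians of 6057 bp and 5983 bp. The 14 other homeobox genes (Nkx2-2, Nkx6-1, Nkx6-2, Dbx1, Gbx2, En1, En2, Otx1, Otx2, Emx1, Emx2, Six3, Dlx1, Dlx2) had H3K27me3 medians of 23771 bp and 24148.5 bp, and H3K4me3 at 14 of 14 in both. For the POU genes Pou3f2 and Pou4f1 the H3K27me3 lengths in WT were 27220 bp and 20826 bp, with short H2AK119ub of 1973 bp and 506 bp.

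The 9 bHLH genes (Olig1, Olig2, Olig3, Neurog1, Neurog2, Neurog3, Neurod1, Neurod2, Atoh1) and the 3 Sox genes (Sox10, Sox14, Sox21) had shorter domains. Their median H3K27me3 lengths in WT were 13780 bp and 15424 bp, and in Delta 15417 bp and 15836 bp. Their H2AK119ub medians were 1986 bp and 1757 bp in WT, and 1279 bp and 2154 bp in Delta. Of the 8 genes whose listing of H2AK119ub or H3K4me3 differed between the genotypes, 4 were bHLH genes (Olig1, Olig3, Neurog1, Neurod1), with 1 each from the Pax, Sox, LIM homeobox and other homeobox groups. These families were small, and their order was not tested.

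Other neural genes gave a similar picture at the level of regulators. In a list of 47 further neural regulators, H3K27me3 was at 45 genes in both genotypes, H2AK119ub at 39 in WT and 37 in Delta, H3K4me3 at 45 and 42, and H3K27ac at 0 and 0. The 2 without any listed peak were Neurod4 and Neurod6, bHLH relatives of Neurod1 and Neurod2. Single genes of this list varied more between libraries than the 38 did. Zic2, a zinc finger factor of the dorsal neural tube, had 23768 bp of H3K27me3 in WT and 3301 bp in Delta. Sox2, a factor of neural progenitors and pluripotent cells, had 34609 bp and 19213 bp, while Lmx1b, a LIM homeobox factor of dopamine and serotonin neurons, had 28311 bp and 48386 bp. These 3 were chosen after their values were seen.

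Genes of differentiated neurons and glia were listed with shorter H3K27me3. The median H3K27me3 length over 25 such genes was 4713 bp in WT and 4705 bp in Delta. Of the 25 genes, 18 had H3K27me3 in WT and 17 in Delta, 9 and 7 had H2AK119ub, 17 and 16 had H3K4me3, and 0 and 0 had H3K27ac. For H3K4me3 these shares (68.0% and 64.0%) were near the 60.7% and 60.3% of all genes. Tubb3, a neuronal tubulin, had 6364 bp of H3K27me3 in WT and 7005 bp in Delta. Dcx and Syp, a neuronal migration factor and a synaptic vesicle protein, had no listed peak of any of the 4 marks in either list. These 3 were likewise chosen after their values were seen.

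Cardiac and blood regulators are the alternative and the proper fate of these cells, and lists of them were set beside the neural genes. The cardiac list shares Isl1 with the list of further neural regulators. Of 15 cardiac transcription factor genes, 14 had H3K27me3 in both genotypes, with H2AK119ub at 12 in WT and 8 in Delta and H3K27ac at 1 in WT and 4 in Delta. Hand1, a heart and extraembryonic mesoderm factor, had 15101 bp of H3K27me3, 1048 bp of H2AK119ub and no H3K27ac in WT, and 12937 bp, no H2AK119ub and 1291 bp of H3K27ac in Delta. Other cardiac genes went the other way: Tbx5 had 6462 bp of H2AK119ub in WT and 10676 bp in Delta, and Nkx2-5 had 18037 bp and 19685 bp of H3K27me3. Of 17 blood transcription factor genes, 10 had H3K27ac in WT and 1 in Delta, and 13 and 14 had H3K27me3. Lyl1, a bHLH relative of SCL, had 887 bp of H3K27ac in WT and none in Delta, and its H3K27me3 measured 10064 bp and 18494 bp. These 4 genes were chosen after their values were seen. The neural list had 0 genes with H3K27ac in both libraries. Whether the lists differed in their change between libraries was not tested.

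**Figure D4:**
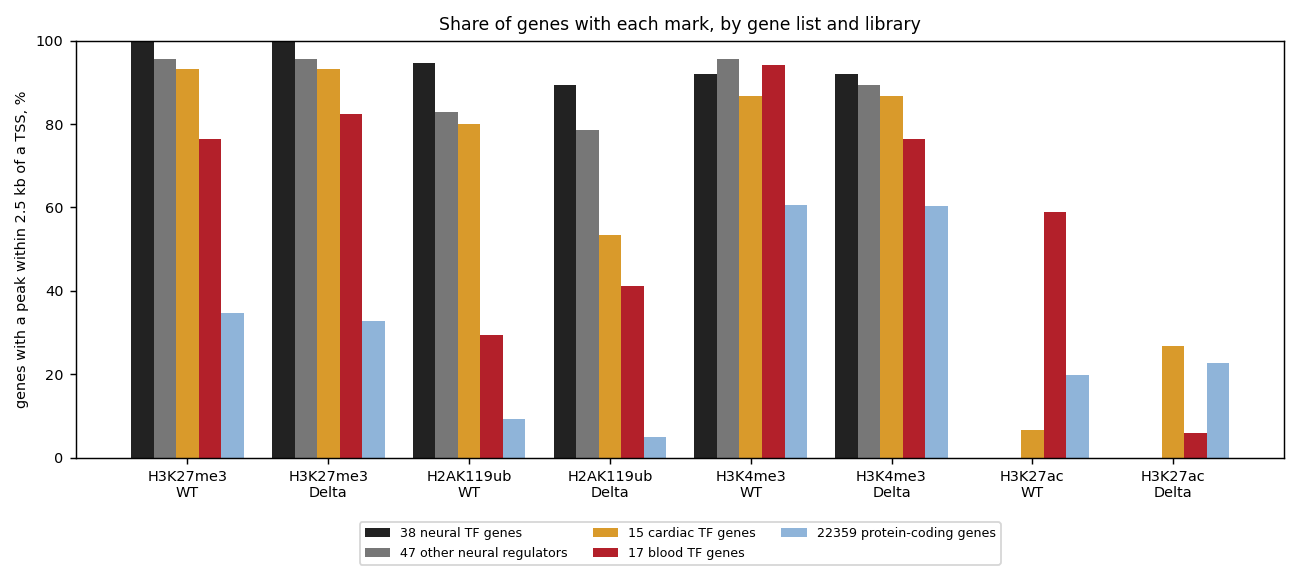
Percent of genes with a peak within 2.5 kb of a TSS (y axis) for each mark and library (x axis), 1 library per group of bars; bars are the 38 neural genes (black), 47 other neural regulators (grey), 15 cardiac (yellow) and 17 blood (red) transcription factor genes and all 22359 protein-coding genes (blue). The black bars stand at 100% for H3K27me3 and at 0 for H3K27ac in both libraries, while the red bar for H3K27ac is at 58.8% in WT and 5.88% in Delta. Isl1 is counted in both the grey and the yellow bars.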

How the data were processed

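Peak lists of 8 ChIP-Rx libraries were used, 1 per mark and genotype, and 2 inputs were not analysed here. According to the study's methods and the submitters' processing notes, reads were mapped to mm9 and dm3 with Bowtie, and broad peaks were called with MACS2 2.0.10 against the input of the same genotype. The deposited lists give a fold enrichment, which is a ratio to the local background, and p- and q-values as −log10. The score deposited by the authors was not used. Spike-in scaling was applied by the authors to signal densities and not to peaks. The lists hold no read numbers, so depth and counting precision are unknown.

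Coordinates are 1-based on mm9. TSSs came from protein-coding transcripts of GENCODE M1, outside the mitochondrial chromosome. Sequences were read from the mm9 reference (NCBIM37). Spi1 and Map2 were matched through RefSeq synonyms, and Gfi1 was not found. A gene's fold enrichment and −log10 q are the highest over its peaks. Genes were described singly where a listing differed between genotypes, where length was among the 2 longest of a list or its H3K27me3 ratio among the 3 largest or smallest, and otherwise by family. The members and lists were chosen with earlier results of these data known. With 1 library per group no test was made. Assignment was tested on simulated data (0 of 400 genes wrong) and checked with bedtools 2.31.1 (0 genes differed in 8 lists). Python 3.11.15, pandas 2.3.3 and numpy 2.4.6 were used. Other settings tried were minima of 3 for −log10 q or for fold enrichment, peaks up to 3000 bp apart joined, a TSS distance of 1000 bp, the longest transcript alone, equal numbers of top peaks, bases within 10000 bp of the TSS, 50% overlap for bivalency and, chosen after the data were seen, an equal lowest −log10 p.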

Additional observations from a re-analysis of the deposited data

How the results depend on the processing

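Across 26 counts and medians and 192 values under alternatives, 174 stayed within 1.5 times the reported value and 18 moved. H3K27me3 and H3K27ac gave no moved value. Within 10000 bp of the TSS the order of the H3K27me3 medians still turned (17873.5 bp in WT, 18145.5 bp in Delta). Joint presence of H3K4me3 and H3K27me3 stayed within 1.5 times. With a −log10 q of at least 3 it fell from 35 genes in each genotype to 32 in WT and 27 in Delta. H2AK119ub depended most on the threshold. With a −log10 q of at least 3 it was listed at 5 WT and 2 Delta genes, with 0 genes in both and medians of 0 bp and 0 bp, and H3K4me3 was in WT alone at 5 genes and in Delta alone at 0. With peaks up to 3000 bp apart joined, the H2AK119ub medians were 10494 bp (WT) and 7005 bp (Delta), and within 10000 bp of the TSS they were 6262 bp and 4893.5 bp. At a TSS distance of 1000 bp the Delta median was 1099 bp. H2AK119ub was then listed at 32 WT and 24 Delta genes, with 23 in both. It was in WT alone at 9 genes and in Delta alone at 1, and H3K4me3 was at 2 and 2. With the longest transcript alone H3K4me3 was in WT alone at 2 genes. With equal numbers of top peaks it was in WT alone at 0 (34 WT and 35 Delta genes in all). For H2AK119ub this setting turned the order between genotypes, to 33 WT and 34 Delta genes, with 3 in WT alone and 4 in Delta alone. A fold enrichment of at least 3 and an equal lowest −log10 p moved no count or median. The cause was not tested beyond the construction of each alternative.

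No paired analysis was possible because each mark had a single library in each genotype, and leaving out a library was not run for the same reason. Lists without spike-in scaling cannot show a change in the overall level of a mark. The 8 genes whose listing of a mark differed had peaks with a −log10 q between 1.44 and 2.46.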
